A study of Mus musculus with 6 samples.

Results

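Matrix metalloproteinases (MMPs), their tissue inhibitors (TIMPs) and the ADAMTS proteases were followed through 6 biopsies of mouse wound scars. The members are the genes named Mmp, Timp or Adamts with a number directly after, taken from array rows that carry exactly 1 gene symbol, and each is read from its row of highest mean. This gave 44 of the 20255 genes on the array: 22 MMP, 4 TIMP and 18 ADAMTS genes. A gene of these families without such a row was not analysed here.

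Each biopsy was whole skin from a healed wound, and the groups are high regeneration (3 samples) and low regeneration (3 samples), each sampled once at 4, 6 and 9 days after closure. The design text describes the low animals as having no regenerated follicles. All 6 scars were wounded skin, and no treatment is named. The sources used here give no strain, genotype, sex or age, nor the number of animals. Levels are log2 values per row of an Affymetrix exon array. Rows differ in their probes, so a level of 1 gene is not set against that of another.

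MMPs are zinc enzymes, made as inactive precursors, that cut collagens and most other proteins of the extracellular matrix. TIMPs bind their active sites, and Timp3 also blocks several ADAMTS enzymes. ADAMTS proteases are secreted, and different subgroups trim procollagen, cut large proteoglycans such as versican and aggrecan, or act on single targets. In healing skin, keratinocytes at the wound edge, fibroblasts, macrophages and neutrophils all release some of these enzymes.

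Several MMP genes lie side by side on mouse chromosome 9, and the promoters of such genes are known for carrying binding sites of AP-1, the factor built from Fos and Jun proteins. The RefSeq promoter table (GRCm38.p6, 250 bases before to 50 after each annotated start) held 30 of the 44 members. The AP-1 motif TGANTCA, searched on both strands, stood in at least 1 promoter of 8 of the 10 MMP genes on chromosome 9 (Mmp1a, Mmp1b, Mmp3, Mmp7, Mmp10, Mmp12, Mmp13 and Mmp20). It stood in 0 of the other 20 members, and in 8.97% of all 27025 genes in that table (7.81% of 32851 promoters). The TATA box letters TATAAA stood in 9 of those 10 genes, in 2 of the other 20 members (Adamts1 and Mmp21) and in 15.7% of all genes. The GC box letters GGGCGG, by contrast, stood in 0 of the 10, in 16 of the other 20 and in 38.2% of all genes. The motif TGACGTCA was in 0 members (2.03% of all genes), and TGTGGT was in 4 of the 10 and 2 of the other 20 (18.9% of all genes). These are matches of letters, not shown sites.

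The 4 stretches below were chosen because they carry the AP-1 letters and belong to genes of the chromosome 9 group with a level above the filter, and Adamts1 because its difference between the groups was the largest of all members. Each is the 120 bases before the annotated start, 5′ to 3′, with AP-1 and TATA letters in capitals. Counted from the start, the AP-1 match began at base -46 in Mmp3, -63 in Mmp10, -44 in Mmp12 and -35 in Mmp13. Mmp12 is shown at the downstream of its 2 annotated starts, the only 1 of them with the motif.
Mmp3 (chr9:7445702-7445821, plus strand): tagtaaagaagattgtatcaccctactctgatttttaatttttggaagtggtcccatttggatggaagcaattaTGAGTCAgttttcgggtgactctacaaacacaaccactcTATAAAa
Mmp10 (chr9:7502222-7502341, plus strand): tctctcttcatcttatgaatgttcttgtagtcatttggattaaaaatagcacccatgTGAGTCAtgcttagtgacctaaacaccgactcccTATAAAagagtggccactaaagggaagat
Mmp12 (chr9:7347254-7347373, plus strand): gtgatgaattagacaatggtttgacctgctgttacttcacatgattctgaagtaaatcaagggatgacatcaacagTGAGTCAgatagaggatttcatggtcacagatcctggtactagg
Mmp13 (chr9:7272394-7272513, plus strand): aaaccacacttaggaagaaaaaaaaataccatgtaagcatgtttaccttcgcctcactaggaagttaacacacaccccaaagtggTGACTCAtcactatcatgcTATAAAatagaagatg
Adamts1 (chr16:85803114-85803233, minus strand): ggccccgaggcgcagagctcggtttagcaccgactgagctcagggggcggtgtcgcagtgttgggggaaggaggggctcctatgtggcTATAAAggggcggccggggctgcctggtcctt

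Array medians lay between 6.04 and 6.10 log2 units. Keratinocyte and fibroblast markers were present at mean levels of 9.91 to 10.34 (7 basal keratinocyte genes) and 10.53 to 10.71 (10 fibroblast genes) over the 6 samples. Libraries stood apart in ways that bear on the comparisons. The low-regeneration sample of day 9 alone had Xist at a high level (12.77, where the other 5 had 5.75 to 7.30). It had Uty, a Y-linked gene, at 3.88 against 7.46 to 8.07, so sex and group cannot be told apart in that pair. The low sample of day 6 had the Xist level of 7.30, with Uty at 7.85. In the high samples and the low sample of day 4, Xist lay at 5.75 to 5.82. The high-regeneration sample of day 4 had the highest mean level of 7 inner root sheath genes (11.60, against 7.08 to 9.40). Their high minus low medians were 2.31, 0.24 and 2.26 in the pairs of days 4, 6 and 9. At an unadjusted p under 0.05 (limma), 6 of 7 lay higher, against 4.89% of all genes (0 of the 7 passed). The 5 hair shaft genes tested had medians of 2.90, 0.41 and 1.56. The skeletal muscle and adipocyte lists were also highest in the high sample of day 4, at 7.96 (against 6.82 to 7.05) and 7.05 (against 5.57 to 6.24). Their part in the results below was not tested. In a whole biopsy, fewer cells of a type and less RNA per cell cannot be told apart.

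The first comparison asked which members differed between scars of high and low regeneration when the day was matched. No member passed the test over all genes (limma, adjusted p under 0.05), with a lowest adjusted p of 0.144 for Adamts1. Of the 39 members above the filter on dim genes, Adamts1 and Adamts15, which cut proteoglycans, stood highest in the high-regeneration scars, at mean differences of 0.95 and 0.61 log2 units. The macrophage elastase Mmp12 was at 0.37 and Mmp19 at 0.32. On the other side lay the collagenase Mmp13 at -0.56, the leukocyte enzyme Mmp25 at -0.32 and the membrane-bound activator Mmp14 at -0.30. TIMP differences were between -0.10 and 0.21.

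The share of all 15191 genes that passed was 0.0527%, against 0 of 39 members. At an unadjusted p under 0.05 there were 12 members (30.8%), 8 higher and 4 lower, where 10.1% of all genes reached this (4.89% higher, 5.17% lower). The count was 7 without the day block, 7 without the day 6 pair and 4 without the day 9 pair. The difference had 1 sign in all 3 pairs for 18 members, 10 higher and 8 lower (46.2%), against 34.0% of all genes (15.8% higher, 18.3% lower). The 3 high and 3 low samples did not overlap for 7 members (17.9%), 5 higher and 2 lower, against 11.3% of all genes (5.08% higher, 6.18% lower). The median difference was -0.011 for MMP, 0.014 for TIMP and 0.068 for ADAMTS genes, and -0.0028 over all genes tested. Members also spread more over the 6 samples, with a median range of 0.56 log2 units against 0.34 for all genes.

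**Figure D1:**
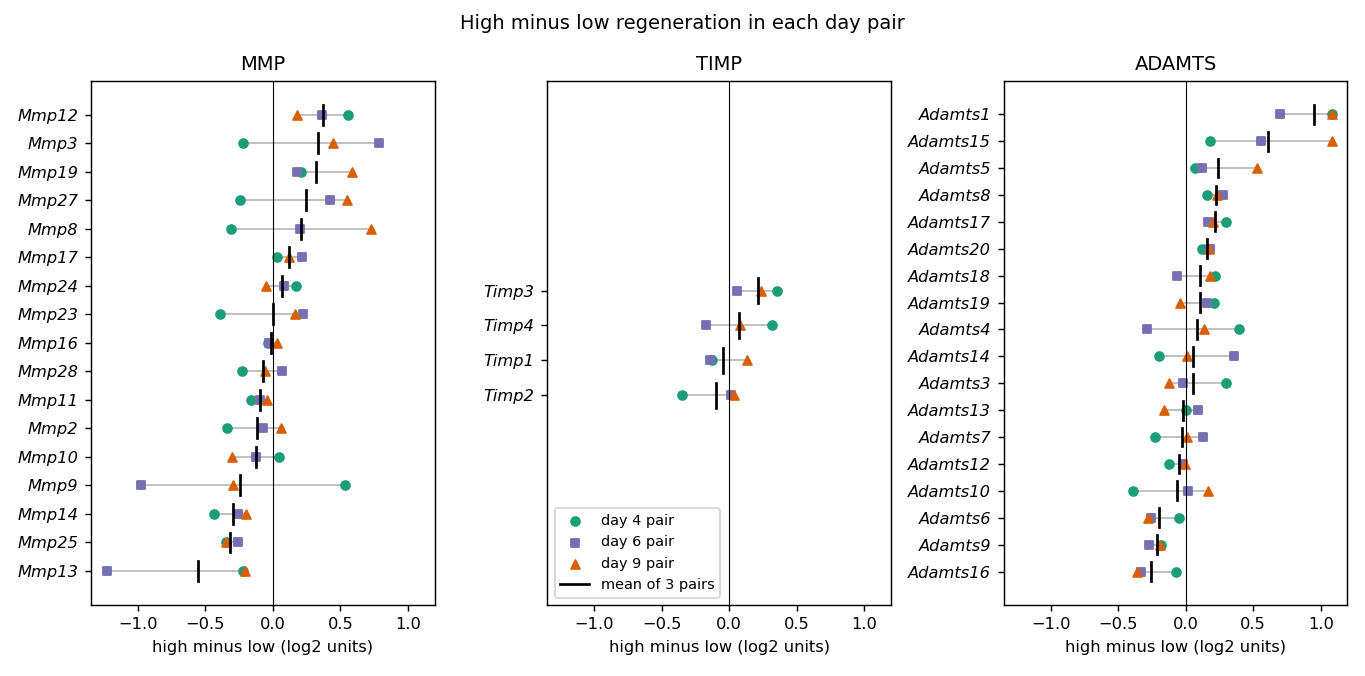
High minus low level (log2 units, horizontal axis) for the 39 members above the filter, in panels for MMP, TIMP and ADAMTS genes. Symbols are the pairs of days 4, 6 and 9 and the black bar is their mean; Adamts1 has its 3 pairs between 0.70 and 1.08, while Mmp9 and Mmp13 are spread widely by the day 6 pair.

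Among ADAMTS genes, 7 are proteoglycanases, and 5 of these (Adamts1, Adamts5, Adamts8, Adamts15 and Adamts20) were higher in all 3 pairs. Adamts9 was lower in all 3, and Adamts4 varied in sign. Their median difference was 0.22 log2 units. Of the 7, 0 passed over all genes and 5 reached an unadjusted p under 0.05, 4 higher and 1 lower, where all genes had 10.1% at that p and 15.8% higher in all 3 pairs. With 7 genes picked by function, nothing particular to them is read from these counts.

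Adamts1, an enzyme that cleaves versican and aggrecan, had log2 levels of 10.46, 10.39 and 10.56 in high scars at days 4, 6 and 9, against 9.38, 9.69 and 9.48 in low scars. The lowest high sample lay 0.70 above the highest low sample, the widest gap between the groups among the 44 members. The mean difference was 0.95 ± 0.22 (SD of 3 pairs, 1.94-fold, higher in 3 of 3 pairs, limma adjusted p = 0.144). Under the alternatives tried the value was 0.89 to 1.08, with adjusted p = 0.0529 to 0.606. The difference was 0.89 without the day 4 pair and 0.89 without the day 9 pair.

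Adamts15, another protease of proteoglycans, had 8.17, 8.56 and 8.71 in high scars at days 4, 6 and 9, against 7.99, 7.998 and 7.63 in low scars. The groups did not overlap, and the pair differences were 0.18, 0.56 and 1.08 in the order of days. The mean was 0.61 ± 0.45 (SD of 3 pairs, 1.52-fold, limma adjusted p = 0.415), and without the day 9 pair it was 0.37. Its slope over days differed between high and low by 0.18 log2 units per day (unadjusted p = 0.0126, limma adjusted p = 0.988). It was the only member of 39 under 0.05 before adjustment in that test (2.56%, against 3.96% of all genes, 1.86% with the higher slope in high scars and 2.1% with the lower), and 0 genes passed after it.

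Adamts8 had 7.26, 7.35 and 6.97 in the high samples, against 7.10, 7.07 and 6.73 in the low, a difference of 0.22 ± 0.06 (SD of 3 pairs, limma adjusted p = 0.401). Adamts20, which cuts versican during pigment cell development, had 7.19, 7.41 and 7.69 in the high samples, against 7.06, 7.24 and 7.52 in the low (0.16 ± 0.03, limma adjusted p = 0.491). In both genes all 3 pairs had 1 sign while the groups overlapped. Adamts9, the closest relative of Adamts20, had 8.04, 8.23 and 8.49 in the high samples, against 8.22, 8.50 and 8.69 in the low (-0.21 ± 0.05, limma adjusted p = 0.412). Adamts5, an aggrecanase, had 8.81, 9.35 and 9.41 in the high samples, against 8.74, 9.23 and 8.88 in the low (0.24 ± 0.25, limma adjusted p = 0.55). Without the day 9 pair it was 0.092. Of its 4 array rows, the 3 brighter ones had positive mean differences of 0.065 to 0.42. Only the brightest, the row read here, was higher in all 3 pairs. The row of mean level 7.36 was higher at day 6 and lower at days 4 and 9. The remaining bright row was lower at day 4 and higher at days 6 and 9. The dim row, at -0.75 and a mean level of 3.43, was lower in all 3 pairs. The mean of all 4 rows gave -0.0085. Adamts4, the other classical aggrecanase, had pair differences of 0.39, -0.28 and 0.13.

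Of the remaining ADAMTS genes, Adamts17 did not overlap between the groups, with 8.06, 8.18 and 8.04 in the high samples against 7.76, 8.01 and 7.83 in the low (0.22 ± 0.07, limma adjusted p = 0.412). Adamts16 had 7.27, 7.24 and 7.62 in the high samples, against 7.34, 7.57 and 7.98 in the low (-0.26 ± 0.16, limma adjusted p = 0.451). Adamts14, which removes the amino-terminal propeptide of fibrillar procollagens, had 10.17, 10.49 and 11.03 in the high samples, against 10.36, 10.13 and 11.02 in the low. Its pair differences of -0.20, 0.36 and 0.0074 varied in sign, and its mean was 0.055 (limma adjusted p = 0.905). Adamts3, with the same substrate class, was at 0.050 and Adamts13, which cuts von Willebrand factor, at -0.021. Adamts7 and Adamts12, both able to cut the cartilage protein Comp, were at -0.030 and -0.050. Adamts6 and Adamts10, which act on fibrillin-rich fibres, were at -0.19 and -0.068, and Adamts18 and Adamts19 at 0.11 each.

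**Figure D2:**
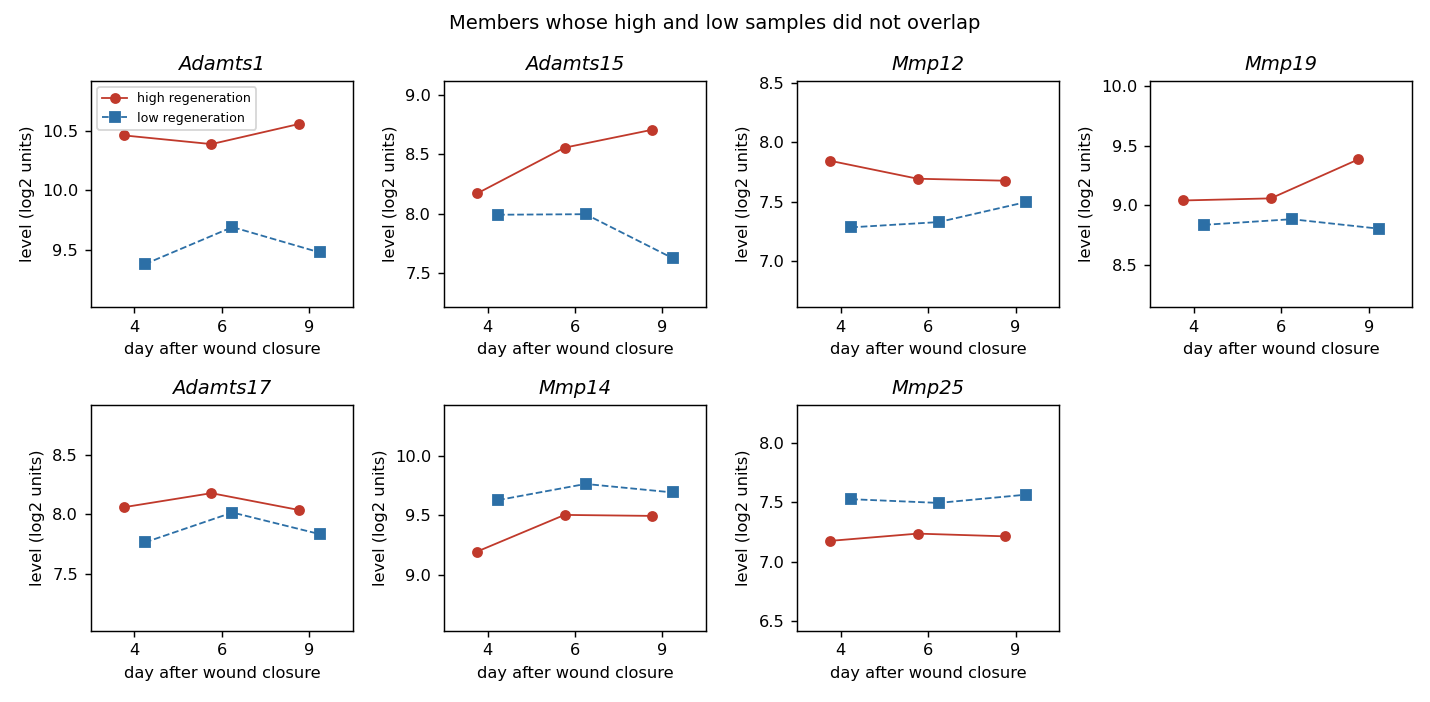
Log2 level (vertical axis, 1.9 units in every panel) by day after wound closure for the 7 members whose samples did not overlap between the groups; circles are high-regeneration and squares low-regeneration samples, 1 per day. High samples lie above low ones in Adamts1, Adamts15, Mmp12, Mmp19 and Adamts17, and below them in Mmp14 and Mmp25.

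MMP genes split in direction, with 3 of 17 higher (17.6%) and 4 of 17 lower (23.5%) in all 3 pairs, near the 15.8% and 18.3% of all genes. Mmp12, an elastase made mainly by macrophages, had 7.84, 7.69 and 7.68 in high scars at days 4, 6 and 9, against 7.28, 7.33 and 7.50 in low scars. The groups did not overlap, and the mean was 0.37 ± 0.19 (SD of 3 pairs, 1.29-fold, limma adjusted p = 0.372). Of 10 macrophage markers, 9 were tested, with a median difference of -0.0079 and mean levels of 9.07 to 9.44 in the high samples and 9.20 to 9.33 in the low. The mean differences of the 9 ran from -0.35 ± 0.36 for Adgre1 to 0.17 ± 0.27 for Cd163 (SD of 3 pairs). Of these 9 markers, 0 had 1 sign in all 3 pairs, against 34.0% of all genes. The part of macrophages in the Mmp12 values was not tested. Mmp19 had 9.04, 9.06 and 9.38 in the high samples, against 8.83, 8.88 and 8.80 in the low, again without overlap. Its mean was 0.32 ± 0.23 (limma adjusted p = 0.446), and without the day 9 pair it was 0.19.

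Of 6 membrane-bound enzymes tested, Mmp14 and Mmp25 lay lower in the high-regeneration scars in all 3 pairs and Mmp17 higher. Mmp14, which sits on the cell surface, cuts fibrillar collagen and activates Mmp2, had 9.20, 9.50 and 9.50 in the high samples, against 9.63, 9.76 and 9.69 in the low. The groups did not overlap, and the mean was -0.30 ± 0.12 (SD of 3 pairs, limma adjusted p = 0.372). Mmp25, a lipid-anchored enzyme of leukocytes, had 7.17, 7.24 and 7.21 in the high samples, against 7.52, 7.49 and 7.56 in the low. Its spread within each group was small beside the mean of -0.32 ± 0.05 (limma adjusted p = 0.284). Mmp17, also lipid-anchored, had 7.28, 7.52 and 7.44 in the high samples, against 7.25, 7.30 and 7.32 in the low (0.12 ± 0.09, limma adjusted p = 0.608), and 0.075 without the day 6 pair. Mmp16, Mmp23 and Mmp24 had mean differences of -0.011, -0.0018 and 0.066.

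Gelatinases, which cut denatured collagen and basement membrane, did not show 1 sign. Mmp2, made by fibroblasts, had 11.42, 11.68 and 11.81 in the high samples, against 11.76, 11.75 and 11.75 in the low (-0.12 ± 0.21, limma adjusted p = 0.713). The high sample of day 4 was the lowest of the 6, and the difference was -0.0060 without that pair and -0.21 without the day 9 pair. Mmp9, made by neutrophils and by keratinocytes at wound edges, had 8.54, 7.81 and 7.78 in the high samples, against 8.004, 8.78 and 8.08 in the low. Its pair differences of 0.53, -0.97 and -0.30 made a mean of -0.25 ± 0.75 (limma adjusted p = 0.805), so the spread between pairs was larger than the mean. Of 9 wound-edge keratinocyte genes, 4 were tested, and Krt16, Krt17 and Sprr1b had the signs of Mmp9 in all 3 pairs while Itga5 had the opposite signs. Their medians were 0.43, -0.52 and -0.33 in the pairs of days 4, 6 and 9, with mean levels of 10.20 to 11.10 in the high samples and 10.66 to 11.03 in the low. S100a8, a neutrophil and wound-edge marker, had 8.54, 6.55 and 6.90 in the high samples, against 7.06, 8.25 and 6.41 in the low, with the sign of Mmp9 at days 4 and 6 and the opposite sign at day 9. The neutrophil list, 6 of 10 tested, had mean levels of 6.37 to 6.97 in the high samples and 6.40 to 6.77 in the low. Of its granule genes, Ngp, Ltf and Mpo lay below the filter. Those above it had pair differences of 0.16, 0.33 and 0.054 (Elane), 0.30, -0.45 and 0.16 (Lcn2) and -0.013, 0.056 and -0.049 (Camp). Of the other neutrophil genes, Cxcr2 had the signs of Mmp9 in all 3 pairs (0.47, -0.30 and -0.50). So did S100a9, below the filter (0.82, -0.15 and -0.44), while Csf3r did not (-0.13, 0.082 and -0.38). The 7 basal keratinocyte genes had medians of 0.23, -0.072 and -0.018 in the same order of days. The part of these cells in the Mmp9 values was not tested.

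Collagenases open the fibrillar collagen triple helix. Mmp13, the main interstitial collagenase of the mouse, had 8.46, 7.88 and 8.94 in high scars at days 4, 6 and 9, against 8.69, 9.11 and 9.15 in low scars. It was lower in all 3 pairs, mostly at day 6, and the groups overlapped. The mean was -0.56 ± 0.59 (SD of 3 pairs, limma adjusted p = 0.506), and without the day 6 pair it was -0.22. Mmp8, the collagenase stored in neutrophil granules, had 6.49, 6.78 and 6.02 in the high samples, against 6.81, 6.58 and 5.29 in the low, with pair differences of -0.31, 0.20 and 0.73. The collagenases Mmp1a and Mmp1b were dim, at mean levels of 4.02 and 4.00, below the filter limit of 5.60.

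Stromelysins cut proteoglycans and activate other MMPs. Mmp3 had 9.92, 10.99 and 9.73 in the high samples, against 10.15, 10.21 and 9.29 in the low, and its pair differences of -0.22, 0.79 and 0.44 gave 0.34 ± 0.51 (limma adjusted p = 0.623). Without the day 6 pair this was 0.11, and without the day 4 pair 0.61. Mmp10, expressed by migrating keratinocytes, was between 6.89 and 7.19 in all 6 samples, at a mean difference of -0.13. Mmp11 had 10.17, 9.92 and 10.18 in the high samples, against 10.33, 10.01 and 10.22 in the low (-0.098 ± 0.06, limma adjusted p = 0.65). Mmp27, the neighbour of Mmp8 on the chromosome, had 6.85, 7.71 and 6.83 in the high samples, against 7.10, 7.29 and 6.28 in the low, and its pair differences of -0.25, 0.42 and 0.55 had the same signs as those of Mmp3 and Mmp8. Epilysin, Mmp28, which keratinocytes make, was at -0.073. The matrilysin Mmp7 (mean level 4.99), the enamel protease Mmp20 (4.89) and Mmp21 (5.43) lay below the filter, and their samples spanned 0.39, 0.19 and 0.39 log2 units.

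Levels of the AP-1 genes themselves were set beside those of the chromosome 9 MMPs. All 7 (Fos, Fosb, Fosl1, Fosl2, Jun, Junb and Jund) were higher in the high-regeneration samples without overlap, as were 5.08% of all genes. Fos had 11.48, 11.63 and 11.41 in the high samples, against 10.40, 10.47 and 10.24 in the low (1.14 ± 0.05, SD of 3 pairs, limma adjusted p = 0.0381). Fosb also passed, at 1.52 ± 0.16 (SD of 3 pairs, limma adjusted p = 0.0381), which made 2 of the 7. Both calls were lost without the filter on dim genes, after quantile normalization, without the day 4 pair and without the day 9 pair, where 0 genes passed. The AP-1 list had a median difference of 0.65. Of the 4 genes whose promoters are printed above with AP-1 letters, Mmp12 was higher in all 3 pairs, Mmp13 lower in all 3, and Mmp3 and Mmp10 varied in sign. Mmp8 and Mmp27, with no match in the window, varied in sign. None of these 6 passed the test, and whether AP-1 proteins act on any of them was not tested.

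**Figure D3:**
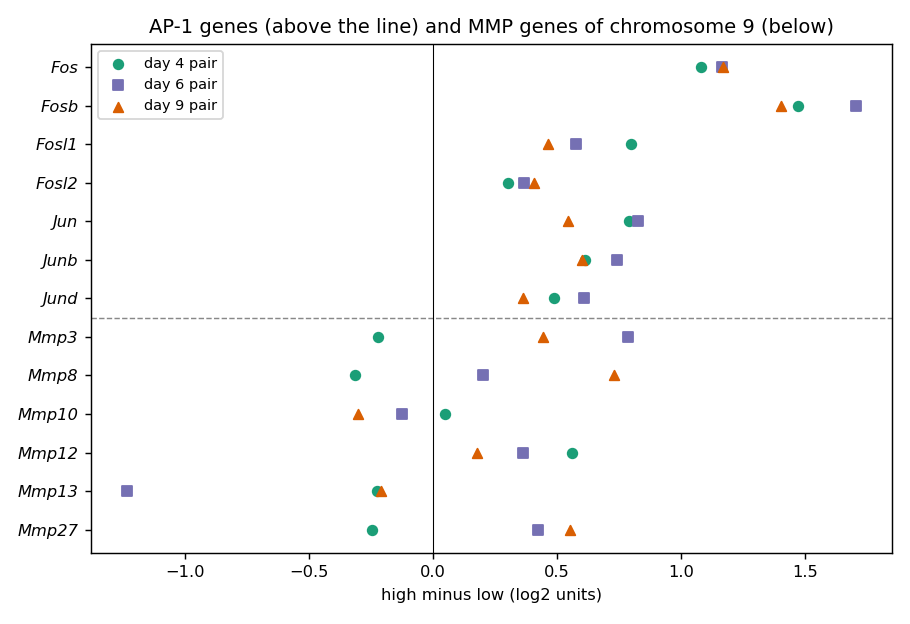
High minus low level (log2 units) in the pairs of days 4, 6 and 9 for 7 AP-1 genes, above the dashed line, and the 6 MMP genes of chromosome 9 above the filter, below it. All AP-1 points lie right of 0, while among the MMP genes only Mmp12 has all 3 points to the right and only Mmp13 all 3 to the left.

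Of the 4 TIMP genes, 0 passed and 1 had 1 sign in all 3 pairs. Of all genes, 34.0% had 1 sign in all 3 pairs (15.8% higher, 18.3% lower), so nothing particular to TIMP genes is read from this count. Timp1, an inhibitor induced by cytokines and growth factors, had 9.59, 9.63 and 10.15 in high scars at days 4, 6 and 9, against 9.71, 9.77 and 10.01 in low scars (-0.045 ± 0.15, limma adjusted p = 0.885). Timp2, which also helps Mmp14 activate Mmp2, had 10.68, 10.94 and 10.92 in the high samples, against 11.03, 10.92 and 10.89 in the low (-0.10 ± 0.22, limma adjusted p = 0.763). In Timp2 the high sample of day 4 was the lowest, as it was in Mmp2, Mmp14 and Timp1. The same sample was lowest in Mmp16, Mmp23, Mmp25, Mmp28, Adamts7, Adamts9, Adamts10 and Adamts12, so this is not particular to Timp2, Mmp2 and Mmp14. The mean level of the 10 fibroblast genes was also lowest there, at 10.53 against 10.65 to 10.71. The part of fibroblasts in these values was not tested. Timp3, which binds to the matrix, had 8.67, 8.53 and 8.41 in the high samples, against 8.32, 8.47 and 8.18 in the low. It was the only TIMP with 1 sign in all 3 pairs (0.21 ± 0.15, limma adjusted p = 0.493), and its groups overlapped. Timp4 had 6.03, 5.55 and 5.42 in the high samples, against 5.71, 5.72 and 5.34 in the low (0.073 ± 0.24, limma adjusted p = 0.852). Its mean level of 5.63 was only just above the filter limit of 5.60, and its values of 5.55, 5.42 and 5.34 lay below that limit. In RefSeq, Timp1, Timp3 and Timp4 overlap the synapsin genes Syn1, Syn3 and Syn2. Outside these, Timp2 overlaps Cep295nl, Mmp19 overlaps Tmem198b, Mmp25 overlaps Bicdl2 and Mmp23 overlaps Mib2. Their values are uncertain to that degree, since whether the probes part them is not given in the sources used here.

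**Figure D4:**
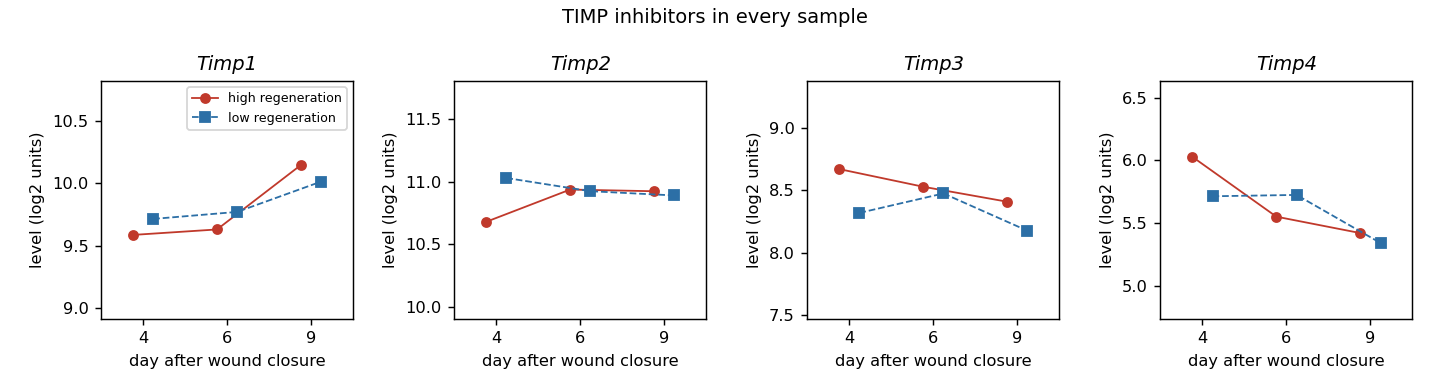
Log2 level (vertical axis, 1.9 units in every panel) of the 4 TIMP genes by day after wound closure, with circles for high-regeneration and squares for low-regeneration samples, 1 per day. Timp1 is highest at day 9 in both groups and Timp4 lowest there, and the groups cross in Timp1, Timp2 and Timp4.

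Genes around these enzymes were described from lists of regulators, substrates and relatives, none of whose members passed over all genes. Of 18 activators and regulators, 12 were tested, with a median difference of 0.053, 4 higher and 1 lower in all 3 pairs. Of all genes, 15.8% were higher and 18.3% lower in all 3 pairs. Plaur, the urokinase receptor that localises plasmin formation, was at 0.47 ± 0.12 (SD of 3 pairs, limma adjusted p = 0.217), with 7.56, 7.75 and 7.73 in the high samples against 7.19, 7.31 and 7.12 in the low. Reck, a membrane inhibitor of MMPs, was at 0.054. Of 17 matrix substrates, 15 were tested, with a median of -0.019. Thbs1, a matrix glycoprotein that ADAMTS1 can cut, was at 0.51 ± 0.12 (limma adjusted p = 0.192), the proteoglycan Vcan at 0.40 ± 0.26 (limma adjusted p = 0.401) and Col7a1, of anchoring fibrils, at -0.30 ± 0.10 (limma adjusted p = 0.361). The 8 tested ADAM proteases, membrane relatives that shed cell surface proteins, had a median of -0.026, and the 5 tested ADAMTS-like genes, which lack the protease domain, one of -0.011.

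The second comparison asked which members differed with the day after closure, with regeneration level as a covariate. The fit treats both samples of a day as separate observations. Each day also had its own date, so the 2 cannot be told apart. Again no member passed (lowest limma adjusted p = 0.148, for Adamts20), as 0.0% of all genes did. At an unadjusted p under 0.05 there were 10 of 39 members (25.6%), 7 with a positive and 3 with a negative slope, against 16.2% of all genes (6.94% positive, 9.24% negative). Leaving out 1 sample at a time, the count ran from 7 (without the high sample of day 9) to 16 (without the high sample of day 4). It was 9 without the low sample of day 9. Day 9 and day 4 differed in 1 direction in both groups for 27 members (69.2%, against 63.8% of all genes). Day 9 lay above day 4 in both groups for 18 members (46.2%, against 28.8% of all genes) and below it in both for 9 (23.1%, against 34.9%). ADAMTS genes made up 11 of those 18.

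Among ADAMTS genes, Adamts14 had the steepest slope, 0.158 ± 0.036 log2 units per day (SE, limma adjusted p = 0.201), with day 9 above day 4 by 0.86 in high and 0.66 in low scars. These values are from the brighter of its 2 array rows. The other row, of mean level 8.50, had 8.40, 8.56 and 8.73 in high scars, against 8.46, 8.18 and 8.67 in low scars. With its rows averaged the Adamts14 slope was 0.108, so its size depends on the row. The slopes of Adamts16 (0.101 ± 0.022, limma adjusted p = 0.19), Adamts20 (0.096 ± 0.015, limma adjusted p = 0.148) and Adamts9 (0.091 ± 0.016, limma adjusted p = 0.166) were alike in size. Adamts20 and Adamts9 were higher at each later day in both groups, with day 9 above day 4 by 0.51 and 0.45 in high scars and by 0.46 each in low scars. Their slopes were 0.092 to 0.099 and 0.083 to 0.097 under every alternative tried. Adamts12 had 0.049 ± 0.016 (limma adjusted p = 0.252). Of 3 ADAMTS genes with day 9 below day 4 in both groups, Adamts13 had a slope of -0.028, and the others were Adamts8 (-0.071 ± 0.021, limma adjusted p = 0.237) and Adamts18 (-0.069 ± 0.029, limma adjusted p = 0.321). Adamts18 had 7.19, 7.16 and 6.86 in high scars, against 6.98, 7.23 and 6.68 in low scars, so day 9 was the lowest in both, and without the low sample of day 9 its slope was -0.043.

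Among MMP genes, Mmp16, a membrane-bound enzyme, stood at 5.69, 5.75 and 6.39 in high scars at days 4, 6 and 9, and at 5.73, 5.79 and 6.35 in low scars. Both groups were nearly level between days 4 and 6 and higher at day 9, with a slope of 0.137 ± 0.024 per day (SE, limma adjusted p = 0.168). Mmp13 had a slope of 0.101 ± 0.056 (limma adjusted p = 0.407), which was 0.035 without the high sample of day 9 and 0.16 without that of day 4. Mmp28 had 6.92, 7.22 and 7.19 in high scars, against 7.15, 7.15 and 7.25 in low scars, with a slope of 0.035 ± 0.020 (limma adjusted p = 0.423), or 0.013 without the high sample of day 4. Mmp8, Mmp3 and Mmp27 had negative slopes of -0.21 ± 0.06, -0.13 ± 0.09 and -0.10 ± 0.08 (SE, limma adjusted p = 0.227, 0.49 and 0.517). For all 3 the lowest of the 6 samples was the low-regeneration sample of day 9, and without it the slopes were -0.11, -0.055 and -0.011. Without the high sample of day 4 the slopes of Mmp3 and Mmp27 were -0.24 and -0.21. Mmp9 differed in direction between the groups, with day 9 minus day 4 of -0.75 in high and 0.075 in low scars (difference in slope -0.13 per day, limma adjusted p = 0.988).

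TIMP genes ran in both directions over the days. Timp1 had a slope of 0.089 ± 0.022 log2 units per day (SE, limma adjusted p = 0.212), or 0.056 without the high sample of day 9, with day 9 above day 4 by 0.56 in high and 0.30 in low scars. Timp4 had -0.097 ± 0.025 (limma adjusted p = 0.215), with day 9 below day 4 in both groups, by -0.61 in high and -0.37 in low scars. Both of its day 9 values lay below the filter limit, so this slope is of a dim gene. Timp3 was at -0.043 ± 0.021 (limma adjusted p = 0.361) and Timp2 at 0.0090 ± 0.023 (limma adjusted p = 0.865). Marker lists of other cell types also differed in level between days 4 and 9. Of all genes, 34.9% had day 9 below day 4 in both groups. Adipocyte genes, 4 of 5 tested, did so in 4 of 4, with mean levels of 5.57 to 7.05 in the high and 5.59 to 6.24 in the low samples. Inner root sheath genes did so in 7 of 7, with mean levels of 9.01 to 11.60 in the high and 7.08 to 9.29 in the low samples. The part of these cell types in the negative slopes was not tested.

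**Figure D5:**
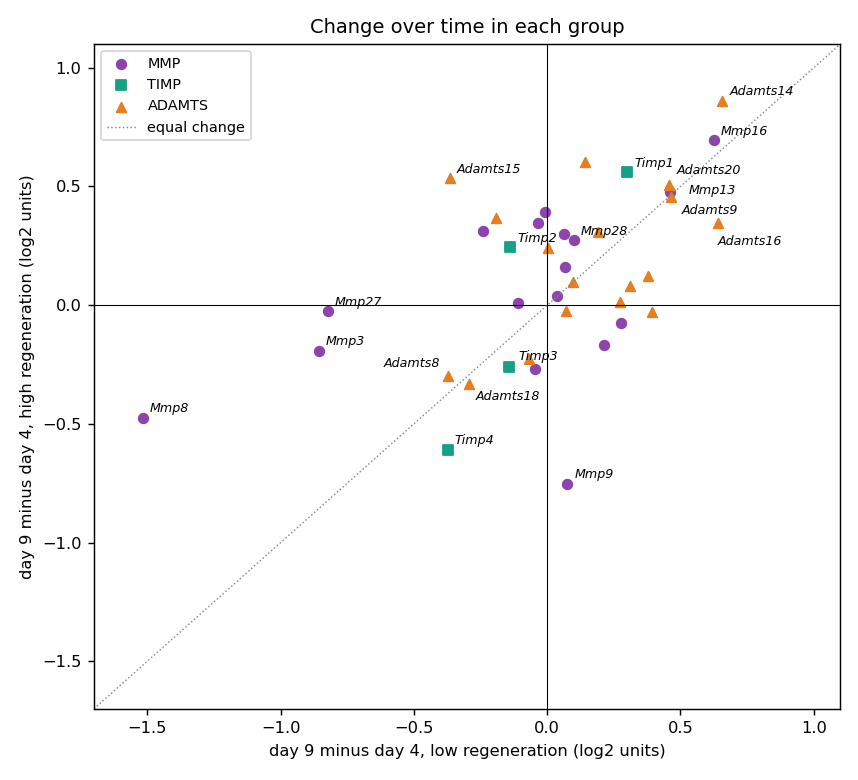
Day 9 minus day 4 in high-regeneration scars (vertical axis) against the same in low-regeneration scars (horizontal axis), in log2 units, for the 39 members above the filter, with the dotted line at equal change. Adamts14, Mmp16, Adamts20 and Adamts9 lie near that line on the positive side, Mmp8 lies far to the left at -1.52 in low scars, and Adamts15 (0.54 in high, -0.37 in low) and Mmp9 (-0.75 in high, 0.075 in low) lie in quadrants of opposite sign.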

How the data were processed

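The deposited values were log2 levels, a scale read from their range (2.03 to 14.6), since no label states it. The submitters' processing notes name PLIER and Affymetrix Expression Console. Their versions, the genome build and the background correction: not given in the sources used here. Of 53145 rows, 25466 had 1 gene symbol in the platform annotation, 2299 several and 25380 none in the table used, and 24868 were matched by gene identifier to RefSeq (GRCm38.p6) with 0 symbols updated. The row of highest mean was kept per gene (20255 genes), and the lowest 25% by mean (5.60 or below) were left out, leaving 15191 tested. The 5 members below it are given as levels only. Two-sided tests used limma 3.58.1 in R 4.3.3 (lmFit, eBayes, Benjamini-Hochberg over all genes tested). High minus low had day as a block, which rests on the design text's statement that pairs shared a date. Deviations from the group means, correlated across genes, gave 0.5, 0.112 and 0.56 within days 4, 6 and 9, and up to 0.141 between days. The slope per day had regeneration level as a covariate. Residual degrees of freedom were 2, 3 for the slope, and 2 for the difference in slope. The labels do not say that samples come from separate animals, so p-values measure only the spread between these samples, which may be technical. With 6 arrays, their number limits precision. The fits were tested on simulated data.

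The members and gene lists were chosen with earlier results of these data known. Values per sample are given for every TIMP and, of members above the filter, for up to 8 MMP and 6 ADAMTS genes of largest high minus low difference with 1 sign in all 3 pairs, up to 6 each of largest slope with 1 sign of day 9 minus day 4 in both groups, and the 3 of highest mean. From other lists up to 4 genes of lowest p were named. Mmp9, the wound-edge and neutrophil genes, Reck, Fos and Fosb were named after their values were seen.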

Additional observations from a re-analysis of the deposited data

How the results depend on the processing

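No MMP, TIMP or ADAMTS gene passed in either comparison under any alternative run, and the lowest adjusted p (limma) was 0.0529 for high minus low and 0.077 for the slope. Over all genes, 8 passed for high minus low, with 0 without the filter on dim genes and 0 after quantile normalization (1798 and 1516 genes at an unadjusted p under 0.05), 0 to 35 without 1 pair, and 6 with no replicate block for day. Members at an unadjusted p under 0.05 were 12 with the day block, 7 without it, and 4 to 14 without 1 pair. For the slope 0 genes passed (2457 unadjusted), and 0 to 130 without 1 sample. For the difference in slope 0 passed under every setting run (602 unadjusted). Of 43 named results, 34 kept their direction in all alternatives run, and 11 of 343 alternative values had the other sign. Leaving out 1 pair at a time, high minus low ran from -0.095 to 0.18 for Adamts14, -0.13 to 0.0027 for Timp1, -0.17 to 0.023 for Timp2 and -0.047 to 0.20 for Timp4. Leaving out 1 sample at a time, the slope ran from -0.0024 to 0.040 for Adamts1, -0.030 to 0.024 for Mmp11 (also 0.012) and -0.021 to 0.031 for Timp2 (also -0.0054). With its rows averaged, Adamts5 had a difference of -0.0085 and a slope of -0.0090. The cause was not tested. For the mean Adamts5 difference, 1 dim row (mean level 3.43) is negative and the other 3 positive, but only the brightest is positive in all 3 pairs. Over time, that dim row and the row of mean level 7.36 had day 9 below day 4 in both groups. The brightest row had day 9 above day 4 in both, and the remaining row differed in direction between the groups.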
